A study of Homo sapiens with 6 samples.

Results

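The genes described here encode the chaperones, folding enzymes, translocon subunits and degradation machinery of the endoplasmic reticulum (ER), together with the sensors of the unfolded protein response. A list of 46 gene symbols, with no measured value in its rule, defined the set. The list and its division by role were chosen with earlier results of these data known. Shares of members set beside those of all genes therefore describe the set and do not test it. All 46 were found by Ensembl identifier among the 39327 rows of the count table that carry one, and all 46 had enough reads to be tested, among 12821 genes tested in all. They were measured by RNA-seq in CAL62, an established line of anaplastic thyroid carcinoma (ATC) cells, an undifferentiated cancer of the thyroid follicular epithelium. The cells, labelled wild type, received either 50 nM erianin, a plant-derived bibenzyl compound, or an equal concentration of its solvent DMSO, and RNA was collected after 48 h. Each group had 3 libraries from this single line. The comparison asks how the ER folding machinery differed between erianin-treated and control cells at that dose and time, the only ones sequenced. The labels call the libraries replicate experiments without saying what was repeated, so the p-values measure only the spread between these libraries.

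Secreted and membrane proteins enter the ER through the translocon, a channel in its membrane, and fold there with the help of chaperones, lectins that read N-linked sugars, and disulfide isomerases. Proteins that fail to fold are returned to the cytosol and destroyed by the proteasome, which is called ER-associated degradation (ERAD). When unfolded proteins accumulate, the sensors encoded by ERN1 (IRE1 alpha), EIF2AK3 (PERK) and ATF6 start the unfolded protein response, in which the transcription factors ATF6 and spliced XBP1 act on promoter elements of chaperone and ERAD genes. HSPA5, the main luminal chaperone (BiP), is the best known target of that response.

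The ER stress response element of these promoters is a CCAAT box and a CCACG box with 9 bases between them, searched here as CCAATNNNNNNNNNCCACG, and its compact form ERSE-II was searched as ATTGGNCCACG, both on either strand. Promoter sequence came from RefSeq on GRCh38.p14 and covered 250 bases before to 50 bases after each start. This table held 42 of the 46 genes, all but FKBP14, PDIA3, DERL1 and DERL3. The stretches below carry the elements of the members with the largest fold changes (HSPA5 and HERPUD1) and of the response's own transcription factor (XBP1). Also shown is a pair that hold an element while their differences did not pass the test with all libraries (CRELD2 and HYOU1). They are written 5′ to 3′ on the strand of the gene, with the matched elements in capitals.
HSPA5, chr9:125241379-125241421, minus strand: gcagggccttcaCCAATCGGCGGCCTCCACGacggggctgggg
HERPUD1, chr16:56932013-56932047, plus strand: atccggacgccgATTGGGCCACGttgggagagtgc
XBP1, chr22:28800591-28800633, minus strand: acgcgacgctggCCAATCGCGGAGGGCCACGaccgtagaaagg
CRELD2, chr22:49918542-49918584, plus strand: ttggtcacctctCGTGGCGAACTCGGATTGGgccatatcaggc
HYOU1, chr11:119057262-119057405, minus strand: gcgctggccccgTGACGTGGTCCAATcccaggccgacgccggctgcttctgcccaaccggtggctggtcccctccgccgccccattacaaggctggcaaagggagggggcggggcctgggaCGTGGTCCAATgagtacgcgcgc

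HSPA5 and XBP1 carry the element in the forward order and CRELD2 in the reverse order. HYOU1 holds a pair of ERSE-II matches, and the first of them overlaps TGACGTG, the core of the unfolded protein response element (UPRE).

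Reads on named genes numbered between 25776301 and 34107727 per library. DMSO replicate 3 stood apart from every other library. The chi-square between libraries, per gene, was 90.6 and 104 between it and DMSO replicates 1 and 2, against 4.35 between those 2 and 3.80 to 4.80 between the erianin libraries. Among the 46 members, it lay a median of 0.21 from the mean of the other DMSO libraries on the log2 scale, against 0.33 over all genes tested, while DMSO replicates 1 and 2 differed from each other by a median of 0.06. It was farther than 0.5 away in 7 members, lower for SDF2L1, SEC61B, DERL3, SEC61G and CRELD2 and higher for SSR1 and HSP90B1. Results are therefore given with and without it. The thyroid lineage factors PAX8 and HHEX and the keratins KRT7, KRT8, KRT18 and KRT19 were present, and TG, SLC5A5 and DIO1 stayed under 0.4 CPM (counts scaled to library size). TSHR and NKX2-1 are listed at 0 in every library, but so are UFD1, EMC6, GET3 and SELENOK, which most cells use, so a 0 in this table does not show that a gene is silent. Of 5 leukocyte and 4 endothelial markers only CD14 passed a mean of 1 CPM, and these lists summed to 1.96 to 4.48 and 0.431 to 1.49 CPM. Between the groups PAX8, KRT7 and the mesenchymal markers VIM and FN1 fell by 0.66, 0.37, 0.47 and 0.80 on the log2 scale, while HHEX, KRT8, KRT18, KRT19, EPCAM, CDH2 and ZEB1 did not pass the test. Their part in the results below was not tested. In such bulk RNA, fewer cells of one kind and less RNA per cell cannot be told apart.

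Erianin-treated cells had more RNA of 6 of the 10 luminal chaperones, HSPA5 foremost, and of HERPUD1. No lectin, isomerase or translocon subunit passed the main test with all libraries, though some did under other fits described below. Of the 46 members, 9 (19.6%) were higher and 1 (2.17%) was lower at an adjusted p under 0.05 (edgeR's quasi-likelihood test with Benjamini-Hochberg adjustment over all genes tested), against 7.22% and 7.69% of all genes (14.9% in either direction). HSPA5, HERPUD1, DNAJB9 and EIF2AK3 (8.70% of the members) also exceeded a log2 fold change of 0.5, against 5.37% of all genes, and no member was called below -0.5, against 3.36% (8.73% in either direction). The other 5 higher members were DNAJC3, DNAJB11, FKBP14, MANF and ERLEC1, and the lower one was ATF6B. The log2 fold change was above 0 in 33 members and below 0 in 13, where 50.3% of all genes were above 0, and its median was 0.19 against 0.00 over all genes. The groups did not overlap in 21 higher members (45.7%) and 5 lower ones (10.9%), against 19.5% and 19.3% of all genes. Without DMSO replicate 3 the same test called 26 members higher (56.5%) and 8 lower (17.4%), where 27.5% and 27.7% of all genes were called, and the median stayed at 0.19.

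**Figure D1:**
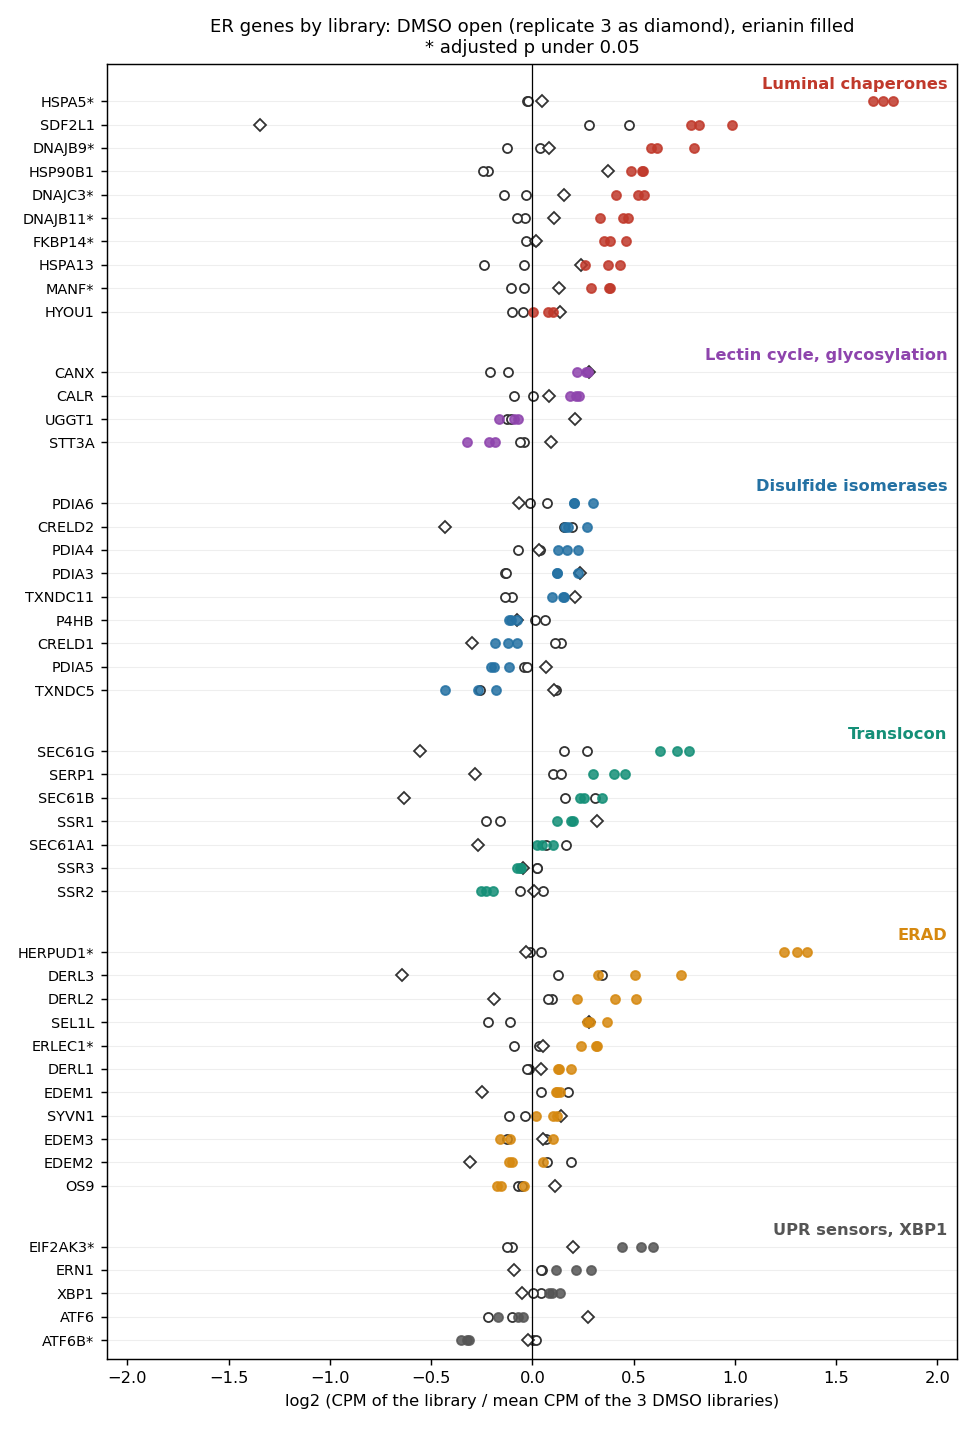
Each gene's level in each library as log2 of its CPM over the mean CPM of the 3 DMSO libraries, by role group. Open symbols are DMSO (diamond, replicate 3), filled symbols erianin, and a star marks an adjusted p under 0.05. HSPA5 and HERPUD1 stand far to the right of all DMSO libraries, and the luminal chaperones all lie above 0 on average, while the other groups spread around it.

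The members together took a larger share of the transcriptome in treated cells. Their summed normalized count was 9176, 9292 and 9715 CPM in the DMSO libraries and 12393, 12745 and 12450.0 CPM in the erianin libraries, a ratio of means of 1.33 (9394 ± 284 against 12529 ± 189 CPM, SD, n = 3). All 3 treated sums lay above all 3 control sums. Most of that difference was a single gene. HSPA5 made up 10.6% of the sum with DMSO and 26.4% with erianin, and the other 45 members went from 8398.5 to 9218 CPM.

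HSPA5 (ENSG00000044574, chr9:125234853-125241330, minus strand, GRCh38) showed the largest fold change of the set. Its level was 978, 979.6 and 1029.9 CPM in DMSO replicates 1, 2 and 3 and 3196, 3424 and 3314 CPM in the erianin replicates, so the groups lay far apart and DMSO replicate 3 sat beside the other controls. The mean rose from 996 ± 29.4 to 3311 ± 114 CPM (SD, n = 3), a 3.33-fold difference (log2 fold change 1.73 ± 0.07 SE, adjusted p = 0.000129 by edgeR's quasi-likelihood test). Leaving out any library gave 1.71 to 1.75. Measured per length, in TPM (transcripts scaled to a fixed total), it was the most abundant of the 46 in both groups, at a mean of 1499 with DMSO and 5716 with erianin.

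HERPUD1 (ENSG00000051108, chr16:56932048-56944863, plus strand), a membrane protein that helps assemble the ERAD ubiquitin ligase complex, followed at a much lower level. Its CPM was 76.3, 79.2 and 75.3 with DMSO and 182, 197 and 190.3 with erianin. The controls lay within a narrow band that included DMSO replicate 3, and the treated libraries were all well above it. The mean rose 2.47-fold, from 76.9 ± 2.01 to 190 ± 7.22 CPM (log2 fold change 1.30 ± 0.07, adjusted p = 0.000219), and the log2 value stayed between 1.28 and 1.32 when any library was left out. HSPA5 and HERPUD1 passed the test under all 18 alternatives of processing and of samples that were run.

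**Figure D2:**
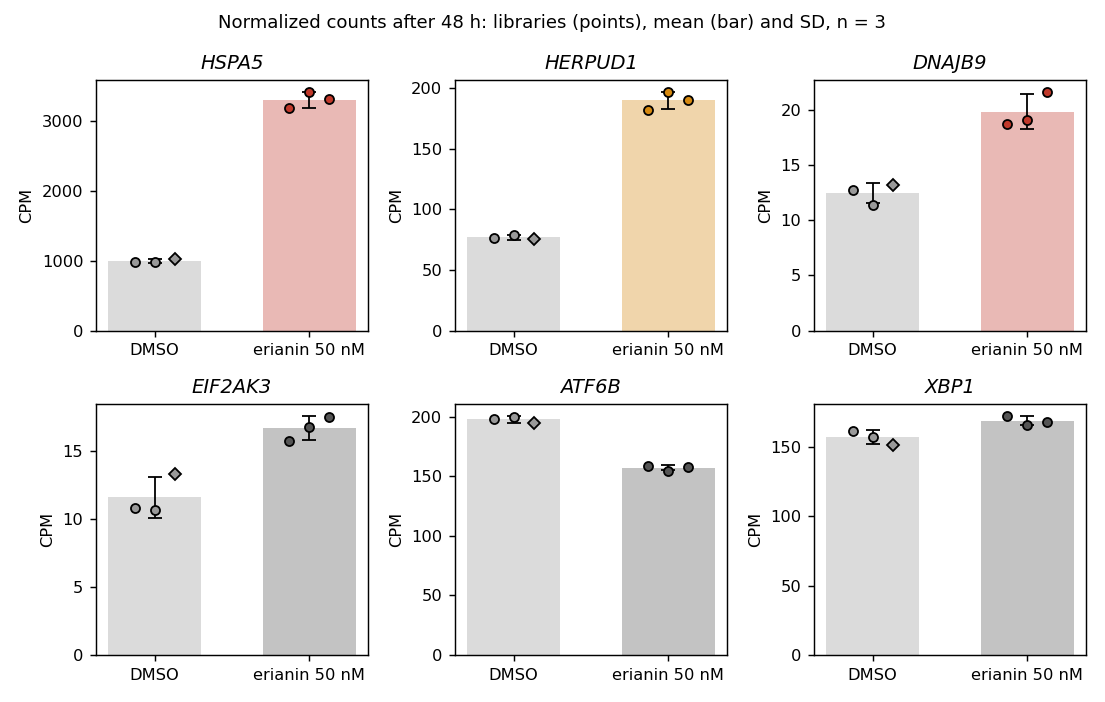
Normalized counts (CPM, linear axis from 0) of HSPA5, HERPUD1, DNAJB9, EIF2AK3, ATF6B and XBP1. Points are libraries (diamond, DMSO replicate 3), bars the mean and error bars the SD of 3 libraries. The first 4 genes are higher in all erianin libraries, ATF6B is lower in all of them, and XBP1 differs little.

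The luminal chaperones were the group with most members called. All 10 had a log2 fold change above 0 under the main test and each of the alternatives, with a median of 0.46. Of them 6 (60.0%) rose, against 7.22% of all genes, and 9 (90.0%) had treated libraries all above the controls, against 19.5%. With the GC offset, an adjustment for transcript GC content, 5 passed, with a replicate block 2, and without any 1 erianin library only HSPA5 did. DNAJB9, a J-domain co-chaperone of HSPA5 that also restrains IRE1 alpha, was at 12.8, 11.4 and 13.2 CPM with DMSO and 18.7, 19.1 and 21.6 CPM with erianin. The treated libraries all lay above the controls, and the mean rose 1.59-fold, from 12.4 ± 0.925 to 19.8 ± 1.59 CPM (log2 fold change 0.67 ± 0.11, adjusted p = 0.0104). That call was lost when any 1 erianin library was left out, with adjusted p of 0.0559 to 0.0681. Small parts of the DNAJB9 exons are shared with PNPLA8 and THAP5 on the other strand.

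The co-chaperones DNAJC3 and DNAJB11, both J-domain partners of HSPA5, rose by log2 fold changes of 0.50 ± 0.11 and 0.42 ± 0.09 (adjusted p = 0.0223 and 0.0192). FKBP14, a prolyl isomerase of the ER that acts on procollagens, rose by 0.40 ± 0.10 (adjusted p = 0.0319). MANF, a secreted ER protein that binds HSPA5 and stabilizes its client complexes, rose by 0.35 ± 0.09 (adjusted p = 0.0350). Each of these 4 calls was lost when any library other than DMSO replicate 3 was left out, and 3 of them were lost with the GC offset. There MANF kept a similar size (0.31, adjusted p = 0.0595), while DNAJB11 and FKBP14 were smaller (0.23 and 0.22, adjusted p = 0.0919 and 0.219).

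For HSP90B1 and SDF2L1 the control library that stood apart lay far from the other controls, and their values by library are given for that reason, chosen after they were seen. HSP90B1, the ER paralog of HSP90, was at 423, 417 and 638 CPM with DMSO and 717, 689.6 and 721 CPM with erianin (log2 fold change 0.53 ± 0.16, adjusted p = 0.0703). DMSO replicate 3 lay close to the treated libraries, and without it the value was 0.75 (adjusted p = 1.71e-16). With it kept, HSP90B1 also passed under DESeq2, the GC offset and on TPM (adjusted p = 0.0270, 0.0244 and 0.0194). SDF2L1, which works with DNAJB11 in the HSPA5 cycle, was at 35.9, 41.2 and 11.6 CPM with DMSO and 50.9, 52.3 and 58.6 CPM with erianin (log2 fold change 0.87 ± 0.39, adjusted p = 0.183). Here the same library was the lowest of all, and leaving it out reduced the value to 0.47 (adjusted p = 5.53e-07). With it kept, SDF2L1 passed under the GC offset (0.94, adjusted p = 0.0481). The groups of both genes did not overlap. The remaining members of the group were HSPA13, an HSP70-family ATPase of the ER, at 0.36 (adjusted p = 0.111), and HYOU1, the nucleotide exchange factor of HSPA5, at 0.06 (adjusted p = 0.670). Without DMSO replicate 3 all 10 luminal chaperones passed the test as higher, in a fit that called 27.5% of all genes higher.

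**Figure D3:**
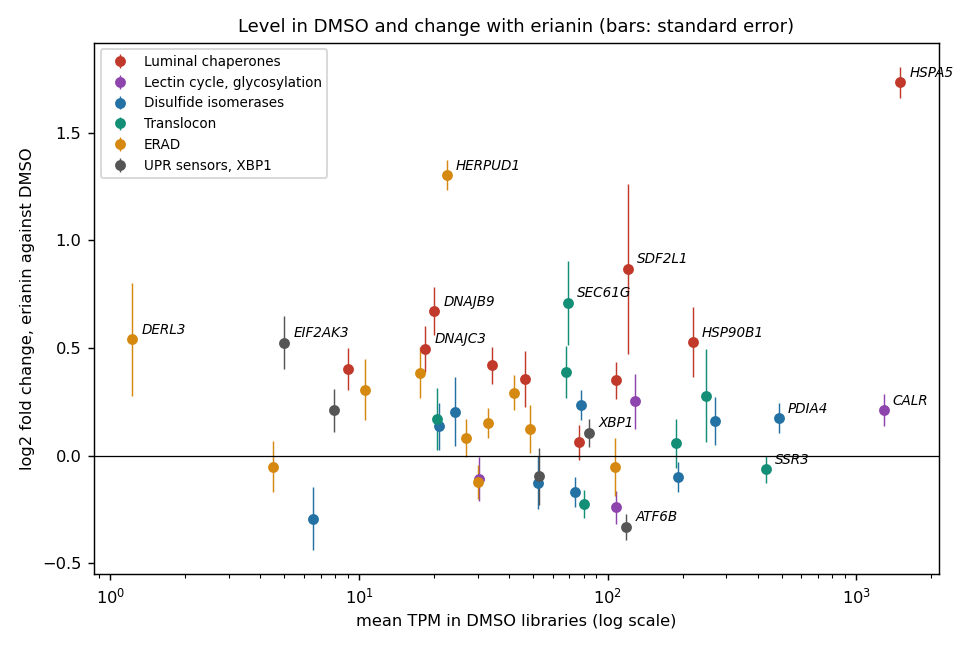
Mean TPM in the DMSO libraries (log axis) against the log2 fold change with erianin, with its standard error as a vertical bar, for the 46 genes coloured by role. HSPA5 combines the highest level with the largest change, while CALR, PDIA4 and SSR3, next in level, lie near 0.

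The lectin and glycan enzymes showed no member past the threshold under the main test, with a median log2 fold change of 0.05. With all libraries log2(TPM + 1) gave 2 higher (50.0%, against 17.3% of all genes) and DESeq2 1 lower (25.0%, against 9.4%). CALR, a calcium-binding lectin chaperone and the second most abundant member per length (TPM), was at 1313, 1401 and 1481 CPM with DMSO and 1641, 1622 and 1593 CPM with erianin. The treated libraries were all higher, by 0.21 ± 0.07 on the log2 scale (adjusted p = 0.0972). CANX, its membrane-bound partner, differed by 0.25 (adjusted p = 0.225), and UGGT1, which marks misfolded glycoproteins for another round of folding, by -0.11 (adjusted p = 0.530). STT3A, a catalytic subunit of the oligosaccharyltransferase that works beside the translocon, was lower in all treated libraries, at -0.24 (adjusted p = 0.0745). With the GC offset and all libraries STT3A passed as lower (-0.36, adjusted p = 0.00802). Without DMSO replicate 3, CALR and CANX passed the test as higher and STT3A as lower.

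Of the 9 disulfide isomerases and related proteins, none passed the main test, and the median was 0.14. With all libraries DESeq2 called 1 higher (11.1%, against 8.37% of all genes) and log2(TPM + 1) gave 4 higher (44.4%, against 17.3%). Without DMSO replicate 3, PDIA3, PDIA4, PDIA6 and TXNDC11 passed as higher and PDIA5, P4HB and CRELD1 as lower, and the median was 0.025. PDIA4, the most abundant per length (TPM), was at 322, 348 and 347 CPM with DMSO and 381, 397 and 369.8 CPM with erianin. Its groups were separate by a small margin, with a log2 fold change of 0.17 ± 0.07 (adjusted p = 0.133). PDIA6, an isomerase that binds HSPA5, came closest to the threshold, at 0.24 (adjusted p = 0.0621). PDIA3, the partner of the lectins CALR and CANX, was at 0.16 (adjusted p = 0.379), and P4HB, the founding member of the family, at -0.10 (adjusted p = 0.371). The other 5 ranged from -0.29 (TXNDC5) to 0.20 (CRELD2), and the adjusted p of CRELD2 was 0.440. Exon bases that another gene shares make up 25.2% of PDIA6, with ATP6V1C2 on the opposite strand, and 60.6% of TXNDC5, with the readthrough gene BLOC1S5-TXNDC5. The readthrough gene had no read in the table, which does not show that it is silent. The effect of these overlaps on the counts was not tested.

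No translocon member passed the main test either, with a median of 0.17. With all libraries DESeq2 called 2 higher and 1 lower (28.6% and 14.3%, against 8.37% and 9.4% of all genes). On log2(TPM + 1) 2 were higher (28.6%, against 17.3%). SSR3, a subunit of the translocon-associated complex and the most abundant of the group per length, was at 697, 696 and 664 CPM with DMSO and 651, 660.2 and 657 CPM with erianin, a log2 fold change of -0.06 ± 0.06 (adjusted p = 0.547). The treated libraries were just below the controls. SEC61G, a small subunit of the channel, had 62.9, 58.0 and 35.4 CPM with DMSO and 80.7, 89.1 and 85.5 CPM with erianin (0.71 ± 0.20, adjusted p = 0.0506), and it too is given because DMSO replicate 3, the lowest library, lay far from the other controls. Without that library its value was 0.49 and passed the test, as did SSR1 and SERP1 as higher and SSR2 and SSR3 as lower. With all libraries SEC61G passed under DESeq2 (adjusted p = 0.00921). With the GC offset its value was smaller, at 0.46, and did not pass (adjusted p = 0.256). The GC offset without DMSO replicate 3 gave 0.15 (adjusted p = 0.0204). The other channel subunits, SEC61A1 and SEC61B, were at 0.06 and 0.28 with that library and at -0.06 and 0.03 without it, and neither value passed the test. SERP1, a stress-induced protein that associates with the channel, was at 0.39 (adjusted p = 0.0685), and the complex members SSR1 and SSR2 at 0.17 and -0.23 (adjusted p = 0.475 and 0.0583). With the GC offset and all libraries SSR2 passed as lower (-0.31, adjusted p = 0.0191).

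Among the 11 ERAD members HERPUD1 and ERLEC1 rose (18.2%, against 7.22% of all genes), none fell with all libraries, and the median was 0.15. When DMSO replicate 3 was left out, 6 passed as higher (54.5%, against 27.5%) and EDEM2 as lower (-0.19, adjusted p = 0.00618). ERLEC1, a lectin that recognizes trimmed glycans on misfolded proteins, rose by 0.29 ± 0.08 (adjusted p = 0.0477). That call was lost without any 1 library other than DMSO replicate 3 and with the GC adjustment (adjusted p = 0.296). EDEM2, which starts the mannose trimming that marks glycoproteins for disposal, was the most abundant per length, at 75.4, 69.6 and 53.4 CPM with DMSO and 68.5, 61.8 and 61.1 CPM with erianin (-0.05 ± 0.13, adjusted p = 0.835). Its groups overlapped through DMSO replicate 3. SEL1L and SYVN1, the scaffold and the ubiquitin ligase that HERPUD1 helps to assemble, were at 0.31 and 0.08 (adjusted p = 0.186 and 0.576). The derlins, membrane proteins of the retrotranslocation channel, were at 0.15 (DERL1), 0.39 (DERL2) and 0.54 (DERL3), with adjusted p of 0.1897, 0.0679 and 0.207. DERL3 was the least abundant of the 46, at a mean of 1.23 TPM with DMSO, and 77% of its exon bases are shared with SMARCB1 on the opposite strand, which had 32135 reads over the 6 libraries against 582 for DERL3. EDEM1, EDEM3 and OS9 lay between -0.12 and 0.12 with adjusted p of 0.340 to 0.815.

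Of the sensors and XBP1, EIF2AK3 rose, ATF6B fell and the other 3 did not pass the test. EIF2AK3 (PERK), the kinase that slows translation under ER stress, was at 10.8, 10.6 and 13.3 CPM with DMSO and 15.7, 16.8 and 17.5 CPM with erianin. All treated libraries were above the controls, and the mean rose 1.44-fold, from 11.6 ± 1.49 to 16.7 ± 0.894 CPM (log2 fold change 0.53 ± 0.12, adjusted p = 0.0300). Dropping any library but DMSO replicate 3 lost the call (adjusted p up to 0.139). ATF6B, the paralog of ATF6, was the only member to fall, from 199, 200.2 and 195 CPM to 159, 155 and 158 CPM. Its groups were tight and well separated, at 198 ± 2.86 and 157 ± 2.17 CPM, a 1.26-fold lower level (log2 fold change -0.33 ± 0.06, adjusted p = 0.0142). On the deposited TPM scale, where the median over all genes was 0.18, the difference of ATF6B was -0.13 and did not pass, and the call was also lost without any 1 of the other 5 libraries (adjusted p up to 0.0892).

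ATF6 was at 69.8, 64.2 and 90.5 CPM with DMSO and 72.5, 71.2 and 66.6 CPM with erianin (log2 fold change -0.10 ± 0.13, adjusted p = 0.675). DMSO replicate 3 was the highest library, and the groups overlapped. ERN1 (IRE1 alpha) was at 18.1, 18.0 and 16.4 CPM with DMSO and 19.0, 20.4 and 21.4 CPM with erianin, higher in all treated libraries by 0.21 ± 0.10 (adjusted p = 0.1999). XBP1, the factor that IRE1 alpha activates by splicing, was at 162, 157 and 152 CPM with DMSO and 172, 166 and 168 CPM with erianin (0.11 ± 0.06, adjusted p = 0.307). Its treated libraries lay just above the controls. Counts per gene do not separate the spliced from the unspliced form of XBP1, so the activity of that arm was not measured, and neither was cleavage of ATF6 or phosphorylation of PERK.

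Per length, HSPA5, CALR, PDIA4 and SSR3 held the first 4 places in both groups, with DMSO at means of 1499, 1286, 488 and 432 TPM. Far below HSPA5, HERPUD1 and DNAJB9 stood at ranks 34 and 37 of the 46, at 22.6 and 20.1 TPM, and EIF2AK3 at rank 44, at 5.01 TPM. With DMSO, the members that rose ranged from the most to nearly the least abundant.

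With all libraries, the ER stress elements of the printed stretches were not shared by most members that rose. ERSE was found in the promoters of 8 of the 42 members in the table (19.0%), against 0.0916% of the 27305 genes with a promoter there, in HSPA5, HSP90B1, CALR, CANX, PDIA6, CRELD2, SERP1 and XBP1. ERSE-II was found in 3 (7.14%, against 0.0696%), in HYOU1, SDF2L1 and HERPUD1. With all libraries HSPA5 and HERPUD1 of these 11 genes rose, and of the 31 members without either element 6 rose and 1 fell. The median log2 fold change was 0.25 with an element and 0.12 without. When DMSO replicate 3 was left out, all of the 11 except CRELD2 and XBP1 passed as higher. That fit called 56.5% of the 46 members and 27.5% of all genes higher. The UPRE core TGACGTG was found in HYOU1, TXNDC5, TXNDC11, SEC61A1 and SSR3 (11.9%, against 2.40% of all genes), none of which passed the test with all libraries. Without DMSO replicate 3, HYOU1 and TXNDC11 passed as higher and SSR3 as lower. These are matches of letters in a window of fixed length and do not show that a factor was bound there.

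**Figure D4:**
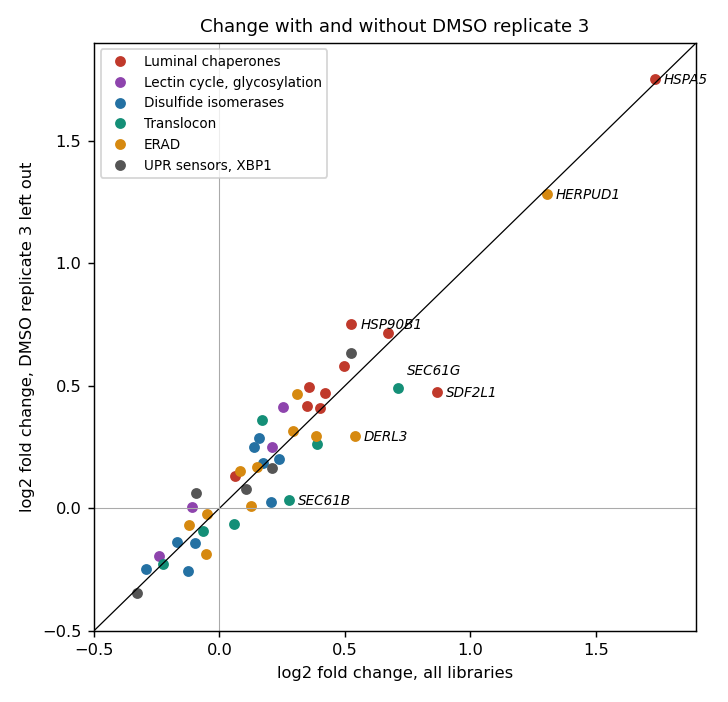
The log2 fold change of each of the 46 genes with all libraries (x axis) and with DMSO replicate 3 left out (y axis), coloured by role, with the line of equality. HSPA5 and HERPUD1 lie on the line, HSP90B1 above it and SDF2L1, SEC61G, SEC61B and DERL3 below it.

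Other genes of the ER that are not among the 46 moved in both directions. Of 143 such genes found, 133 were tested, with a median log2 fold change of -0.01. Of these 6 (4.51%) were higher and 10 (7.52%) lower, against 7.22% and 7.69% of all genes. Leaving out DMSO replicate 3 gave 41 higher (30.8%) and 44 lower (33.1%), against 27.5% and 27.7% of all genes. Among the other folding genes TXNDC16, a thioredoxin-domain protein, rose by 0.60, and the collagen chaperone FKBP10, DNAJC18 and DNAJB12 fell by 0.61, 0.53 and 0.51 on the log2 scale. PRKCSH and GANAB, which encode the subunits of glucosidase II, the enzyme that trims glucose for the CALR and CANX cycle, fell by 0.40 and 0.33. Of the targeting and translocation genes SEC61A2, EMC3 and SRPRB rose by 0.73, 0.42 and 0.41, and TRAM2 fell by 0.44.

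In ERAD, the deubiquitinase YOD1 rose by 1.19 and the ER ubiquitin ligase RNF103 by 0.47, whereas TMUB1, a ubiquitin-like membrane protein, fell by 0.36 on the log2 scale. Among the genes of sensor processing and ER-to-Golgi transport the only one called was MBTPS1, the site-1 protease that cleaves ATF6 and ATF6B, which fell by 0.33. The adjusted p-values of the genes named in these lists were at most 0.0484 by edgeR's quasi-likelihood test with Benjamini-Hochberg adjustment over all genes. Of them FKBP10 and YOD1 kept the call under all 18 alternatives.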

How the data were processed

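RNA-seq of 3 DMSO and 3 erianin libraries was analysed from the deposited tables. Both the raw counts and the TPM values per gene were deposited by the authors, from BGISEQ-500 reads. The submitters' processing notes name fastp 0.23.2, STAR 2.7.10, featureCounts 2.0.1, StringTie 2.2.1 and GRCh38 (hg38). The annotation and the use of strand are not given in the sources used here, so reads of overlapping genes cannot be separated. The deposited TPM values sum to between 59.1% and 78.3% of their nominal total per library. Of 65807 table rows, 26480 had no identifier (0.00385% to 0.00515% of counts) and were left out.

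Counts were analysed with edgeR 4.0.16 in R 4.3.3 (glmQLFit and glmQLFTest without a replicate term, TMM factors, low counts removed with filterByExpr), tested on simulated data. Genes were called at a Benjamini-Hochberg adjusted p under 0.05 over 12821 genes. The second threshold, a log2 fold change of 0.5, is that of the study. Standard errors came from the F statistic, CPM were scaled by the TMM factors, and coordinates came from GENCODE on GRCh38. Libraries held 25776301 to 34107727 counts.

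Alternatives were DESeq2 1.42.0, other scaling factors and filters, limma 3.58.1 on log2(TPM + 1) and log2(TPM + 0.1) (genes with a mean TPM of at least 1, or no filter), a replicate block, an offset for transcript GC content (loess span 0.5), and each library left out. The GC offset without DMSO replicate 3 was added after seeing the data. Values by library are given for members past both thresholds, the sensors with XBP1, and the most abundant member of each role group, except where stated. For each further list, up to 3 called genes per direction with a mean of at least 1 CPM are named, except that 1 called gene and 1 marker are not reported here. The members, role groups and lists were chosen with earlier results of these data known. Protein sequences were not used here.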

Additional observations from a re-analysis of the deposited data

How the results depend on the processing

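With all 6 libraries, 9 members were higher and 1 lower, 4 were higher past a log2 fold change of 0.5, and the median was 0.19. Leaving out each library in turn gave 2 to 26 higher, 0 to 8 lower, 2 to 6 past the fold and medians of 0.15 to 0.20, and for the other ER genes (6 higher, 10 lower) 1 to 41 higher and 1 to 44 lower. Over these same fits 1.34% to 27.5% of all genes were called higher and 0.983% to 27.7% lower. The upper ends of the counts and shares are those without DMSO replicate 3, where the biological coefficient of variation was 0.0421 against 0.139 with all libraries. DESeq2 called 14 members higher and 3 lower (8.37% and 9.40% of all genes). The GC offset gave 7 higher, 3 lower and a median of 0.13 (all genes 7.24%, 14.6% and -0.07), and without DMSO replicate 3 it gave 17 higher, 12 lower and a median of 0.088 (15.9%, 33.3% and -0.07), with 10 higher and 62 lower among the other ER genes. In that fit EDEM1 (-0.13, adjusted p = 0.0249) and XBP1 (-0.17, adjusted p = 0.00141) changed sign and passed the test as lower. On TPM the median of all genes shifted by 0.20 with log2(TPM + 0.1), 0.18 with log2(TPM + 1) and 0.12 without a filter. These gave 26, 26 and 19 members higher (16.9%, 17.3% and 11.2% of all genes), 0 lower (2.31%, 2.34% and 1.30%), 14, 13 and 10 past the fold, medians of 0.40, 0.37 and 0.37, and 28, 29 and 21 higher and 4 lower among the other ER genes. Libraries of the same replicate number showed no pairing in correlations of deviations from the group mean (0.00138, 0.0253 and -0.0329). DMSO replicate 3 enters every DMSO deviation through that mean, so a pairing could have gone unseen. A replicate block called 3 members higher and 0 lower (3.10% and 2.71% of all genes) and 2 other ER genes higher and 4 lower. The block with the GC offset gave 6 members higher, 3 lower and a median of 0.13 (5.41% and 9.89% of all genes called). Upper-quartile factors gave 13 higher, 1 lower and a median of 0.24 (9.06% and 5.9%). In 13 members the log2 value changed sign in 1 or more alternatives without a call on either side (38 values, from -0.06 to 0.16). The causes of these differences were not tested. HSPA5 ranged from 1.64 to 1.93 and HERPUD1 from 1.21 to 1.497 over all alternatives.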

Other observations

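Chaperones of other compartments moved in both directions. Of 23 cytosolic chaperone genes 4 rose and none fell (17.4% and 0.0%, against 7.22% and 7.69% of all genes), with a median log2 fold change of 0.19. With DMSO replicate 3 left out it was 20 (87.0%) and none, where 27.5% and 27.7% of all genes were called. On log2(TPM + 1) 17 rose (73.9%, against 17.3% of all genes). HSPA1B and HSPA1A, the stress-inducible HSP70 genes, rose by 0.79 and 0.62, and they are near-identical, so that their reads can be split between them. DNAJB4, a J-domain partner of HSP70, rose by 0.69. Of 12 mitochondrial chaperone and protease genes none rose and 3 fell (25.0%). Without DMSO replicate 3, 6 (50.0%) rose and 4 (33.3%) fell, against the same 27.5% and 27.7% of all genes. TRAP1, the mitochondrial HSP90, fell by 0.70 on the log2 scale, from a mean of 356 ± 3.02 to 219 ± 6.36 CPM (SD, n = 3), the protease LONP1 by 0.39 and DNAJA3 by 0.32. The median of that list was above 0, at 0.13.

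Of 8 genes of the integrated stress response, which includes signalling downstream of PERK, 2 rose and 2 fell (25.0% each, against 7.22% and 7.69% of all genes). Without DMSO replicate 3 the counts were 3 (37.5%) and 4 (50.0%), where 27.5% and 27.7% of all genes were called. With DESeq2 they were 3 and 3 (37.5% each), against 8.37% and 9.4% of all genes. ATF3 and DDIT3 (CHOP), both transcription factors induced under stress, rose by 1.82 and 1.26 on the log2 scale. ATF4, the factor whose translation PERK signalling raises, and its target CHAC1 fell by 0.34 and 0.60, calls that were kept in 7 and 9 of the 18 alternatives. The others, TRIB3, PPP1R15A, ASNS and SESN2, did not pass the test. The named genes of these 3 lists had adjusted p of 0.00105 (ATF3) to 0.0340 (LONP1) by edgeR's quasi-likelihood test. Of the genes outside the 46 that are named here and among the other ER genes, 7 kept the call under all 18 alternatives.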
